A study of Mus musculus with 2 samples.

Results

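KMT2D is a histone H3 lysine 4 methyltransferase that works within a large complex on enhancers, the stretches of sequence that switch nearby genes on from a distance. Much enhancer sequence lies outside genes, from a few kb to many kb from the gene start it acts on, and KMT2D places the monomethyl mark that is typical of it. The 640 KMT2D peaks described here were chosen by position: their summits lay outside every protein-coding gene, more than 2 kb and at most 20 kb from the nearest end of one. They made up 17.3% (Wilson 95% interval 16.1 to 18.5) of the 3706 peaks on chromosomes 1 to 19, X and Y. The rule used position alone, so fold, pileup and width were not part of the choice.

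The peaks came from HT22 cells, an immortalised mouse hippocampal line, labelled as a wild-type clone and sampled at 70% confluency. Chromatin from 1 library precipitated with an antibody against KMT2D was set against 1 input library of the same genotype, and both libraries were unreplicated. No test between conditions was therefore possible, and peaks within 1 library are not replicates. Each fold is the authors' value for ChIP over background at a summit. Its interval is an exact 95% Poisson interval of the ChIP pileup with the background held fixed. It covers counting error of the ChIP fragments only, so error in the background would widen it. Total read numbers were not given, so the depth behind each value is the number of ChIP fragments at the summit. Positions are on mm10, counted from 1.

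For 13 lncRNA genes a summit fell inside the window from 250 bases before to 50 after the lncRNA start. RefSeq gives the sequence of that window (GRCm38.p6, the build behind mm10), so it shows the letters around such a summit. The whole window was searched, and parts of it can lie outside the peak. The motif TGANTCA, which AP-1 factors bind and which is its own reverse complement apart from the central base, was found in the windows of 4 of these 13 genes. It was found in 10.5% of all 9533 lncRNA genes with such windows and 8.97% of all 27025 genes. With 13 genes the count is small, and the motif was singled out after 9 had been searched on both strands. Counted by window, AP-1 was in 5 of the 14 (35.7%), beside 9.31% of lncRNA windows and 7.81% of all windows. The searched ETS motif CCGGAAG was in 2 of the 14 (14.3%), beside 3.89% and 8.86%. TGTGGT, the RUNX motif, was in 4 (28.6%), beside 20.05% and 16.8%. Each of these shares, on small counts, lay above that of lncRNA windows, so AP-1 was not alone in this. TGACGTCA (CRE, 1.79% of all windows), GGAATG (TEAD, 14.7%), CCAAT (NF-Y, 37.4%), the CTCF motif (0.161%), the tRNA B box (0.0457%) and the CArG box (1.63%) were in none. The 14 windows include an overlapping pair of 1 gene.

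The 4 windows with the AP-1 motif, and the window of highest fold, are shown. They are given 5′ to 3′ on the strand of the lncRNA, with bases counted from 1. Capitals mark TGANTCA, except in Gm42190, which holds none of the searched motifs and where they mark the summit base and 10 bases on each side. The Gm42190 window (chr3:19953905-19954204, minus strand) belongs to the peak before Cp, fold 12.2:
Gm42190: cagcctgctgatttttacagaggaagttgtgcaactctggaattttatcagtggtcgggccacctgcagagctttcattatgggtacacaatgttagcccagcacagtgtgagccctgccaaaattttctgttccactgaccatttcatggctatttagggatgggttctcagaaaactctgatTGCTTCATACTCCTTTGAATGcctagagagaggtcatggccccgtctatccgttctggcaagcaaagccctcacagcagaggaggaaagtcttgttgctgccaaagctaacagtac

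The Gm34026 window (chr8:106399795-106400094, plus strand) lies 15410 bp from Zfp90, with a fold of 7.51 (5.65 to 9.81) and its summit at base 91, 36 bases from the motif. The Gm32861 window (chr7:110288349-110288648, minus strand) lies 4999 bp from Swap70, with a fold of 5.45 (3.68 to 7.79). It holds the motif at 2 places, and its summit, base 144, is the first base of one of them. The peak was 915 bp wide.
Gm34026: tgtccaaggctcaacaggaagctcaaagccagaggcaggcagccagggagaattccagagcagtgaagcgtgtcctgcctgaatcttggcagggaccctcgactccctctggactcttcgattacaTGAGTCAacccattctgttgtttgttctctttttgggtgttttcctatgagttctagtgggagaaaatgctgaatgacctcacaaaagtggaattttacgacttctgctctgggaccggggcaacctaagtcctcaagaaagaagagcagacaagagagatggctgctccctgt
Gm32861: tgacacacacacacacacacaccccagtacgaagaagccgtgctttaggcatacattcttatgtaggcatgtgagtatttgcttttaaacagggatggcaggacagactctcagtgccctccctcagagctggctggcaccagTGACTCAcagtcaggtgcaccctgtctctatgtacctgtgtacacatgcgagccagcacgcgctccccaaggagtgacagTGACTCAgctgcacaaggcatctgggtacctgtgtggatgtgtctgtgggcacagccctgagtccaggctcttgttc

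The Gm52101 window (chr14:34764129-34764428, minus strand) lies 16393 bp from Wapl, a cohesin release factor gene, with a fold of 4.50 (2.86 to 6.77) and its summit at base 53, 101 bases from the motif. Here the motif lay outside the peak, which spans chr14:34764280-34764584. The 5033421B08Rik window (chr12:8510913-8511212, plus strand) lies 11190 bp from Rhob, an immediate early small GTPase gene, with a fold of 3.76 (2.34 to 5.76). Its summit at base 287 is 8 bases past the motif.
Gm52101: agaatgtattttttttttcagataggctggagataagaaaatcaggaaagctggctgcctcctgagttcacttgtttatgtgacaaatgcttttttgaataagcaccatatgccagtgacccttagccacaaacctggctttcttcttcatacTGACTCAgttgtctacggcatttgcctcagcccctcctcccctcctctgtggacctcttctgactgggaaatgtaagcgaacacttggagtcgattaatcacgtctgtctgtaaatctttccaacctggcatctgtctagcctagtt
5033421B08Rik: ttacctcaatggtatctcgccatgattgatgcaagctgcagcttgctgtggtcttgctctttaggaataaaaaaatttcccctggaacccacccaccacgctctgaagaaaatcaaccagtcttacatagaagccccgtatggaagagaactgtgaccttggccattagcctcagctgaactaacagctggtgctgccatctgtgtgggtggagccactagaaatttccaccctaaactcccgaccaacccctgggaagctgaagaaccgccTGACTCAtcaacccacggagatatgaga
The observed to expected CpG ratio of these 5 windows ran from 0.176 to 0.331. Over all 14 windows with a summit the median was 0.329 (range 0.0513 to 1.01), over all lncRNA windows 0.245 and over all windows 0.384.

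MicroRNA genes within 1 kb of a summit numbered 4. The same count was not made over all peaks, so whether 4 is many or few cannot be told. Peaks outside Mon2 lay 19 and 682 bp before the hairpin of let-7i, a miRNA family that limits growth genes, with folds of 2.63 (1.68 to 3.96) and 2.96 (1.96 to 4.32). A pair outside Tlcd2 lay inside Mir22hg, the host gene of miR-22, with folds of 5.48 (4.20 to 7.05) and 4.75 (3.58 to 6.18), the second 585 bp before the hairpin. The Irf1 peak of 3.98 lay 37 bp before the hairpin of miR-7671. The peak 593 bp from miR-760, outside Dnttip2 (5.51, 4.09 to 7.26), was also a tRNA peak, 40 bp from the nearer end of a tRNA gene. One mature arm of each is shown 5′ to 3′, with the seed (bases 2 to 8) in capitals; no seed is shared.
let-7i-5p: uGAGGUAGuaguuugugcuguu
miR-22-3p: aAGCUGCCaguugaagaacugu
miR-760-3p: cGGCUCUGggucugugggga
miR-7671-5p: aGGCUCCGcucuggcuagcuucc

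Across the 640 peaks the median fold was 4.85, with quartiles of 3.90 and 6.57 and a range from 1.55 to 16.6. The median summit held 32 ChIP fragments (quartiles 24 and 46) over a background of 5.71 fragments (4.32 to 7.53). At this depth single folds were loosely fixed: 141 of the 640 (22.0%) had an interval lying wholly above 5, beside 13.4% of all peaks. The median peak was 308 bp wide, and the widest 1387 bp.

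A fold of 10 or more was reached by 27 of the 640 peaks (4.22%, Wilson 95% interval 2.92 to 6.07), where the share over all 3706 peaks was 2.46%. The same count was 17 of 578 (2.94%) for intergenic peaks 20 to 100 kb out, 17 of 638 (2.66%) for gene-body peaks 2 to 20 kb inside, and 10 of 1006 (0.994%) at gene ends. A fold of 5 or more was reached by 294 peaks (45.9%, 42.1 to 49.8), beside 37.6% of all peaks. The upper quartile of fold was 6.57 here, 6.01 at 20 to 100 kb, 5.93 within gene bodies and 4.70 at gene ends. The medians lay closer, at 4.85, 4.70, 4.66 and 3.72. Backgrounds were alike outside gene ends, with medians of 5.71, 5.79 and 6.05 fragments, and higher at gene ends (7.35). Peaks are not independent samples of a condition, so these differences carry no test.

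**Figure D1:**
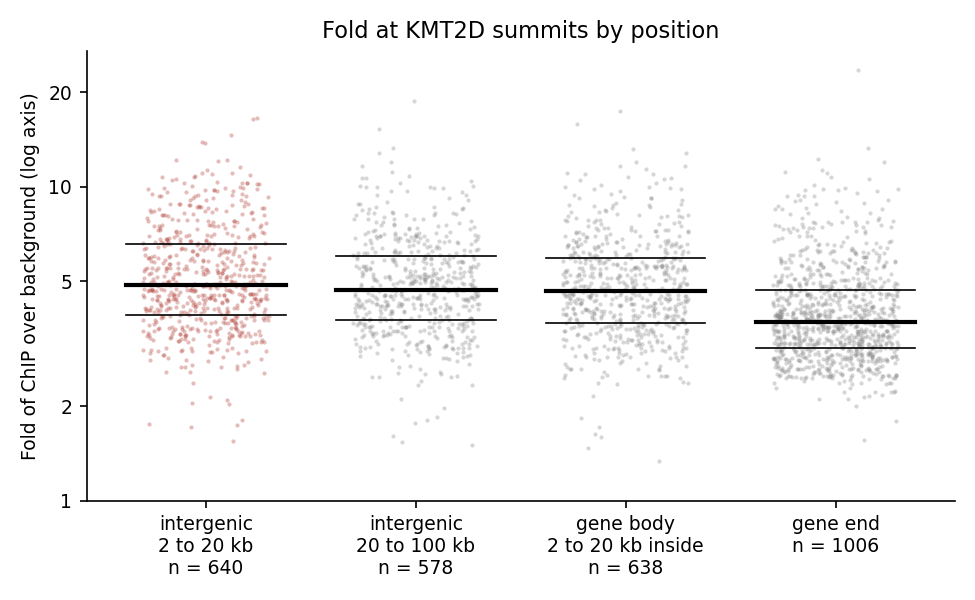
Fold of ChIP over background (log axis) for each peak, by position of its summit: 640 intergenic peaks 2 to 20 kb from a gene, 578 at 20 to 100 kb, 638 gene-body peaks 2 to 20 kb inside and 1006 at gene ends. Thick lines are medians (4.85, 4.70, 4.66 and 3.72) and thin lines quartiles; the 2 to 20 kb peaks have the highest upper quartile, 6.57.

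Part of this upper range lay at tRNA genes, the short genes read by RNA polymerase III. Of the 640 summits, 58 (9.06%, Wilson 95% interval 7.08 to 11.5) lay in a tRNA gene or within 500 bp of one, beside 2.86% of all peaks. Inside a tRNA gene lay 55 of the 58, beside 102 of the 106 tRNA summits in the whole list. All 58 were within 50 bp of the nearer end of a tRNA gene, and they were 54.7% of the 106. Their median fold was 7.71 (range 3.51 to 12.2) with a median of 50 fragments. Another 14 summits lay at other small RNA genes, with a median fold of 4.36; over all peaks that share was 1.51%. They included Rn7sk, the RNA that holds back the elongation factor P-TEFb, at 6.10 (4.43 to 8.19), Rn7s2 at 5.30 and Rnu11, an RNA of the minor spliceosome, at 3.99. Without these 72 peaks, the other 568 had a median fold of 4.70, and 20 of them (3.52%) reached 10. With small RNA peaks left out of the other classes too, the median was 4.70 at 20 to 100 kb, where 2.88% reached 10, 4.61 within gene bodies (2.54%) and 3.67 at gene ends (0.525%). How reads of repeated sequence were placed is not given, and its part in the tRNA folds was not tested.

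**Figure D2:**
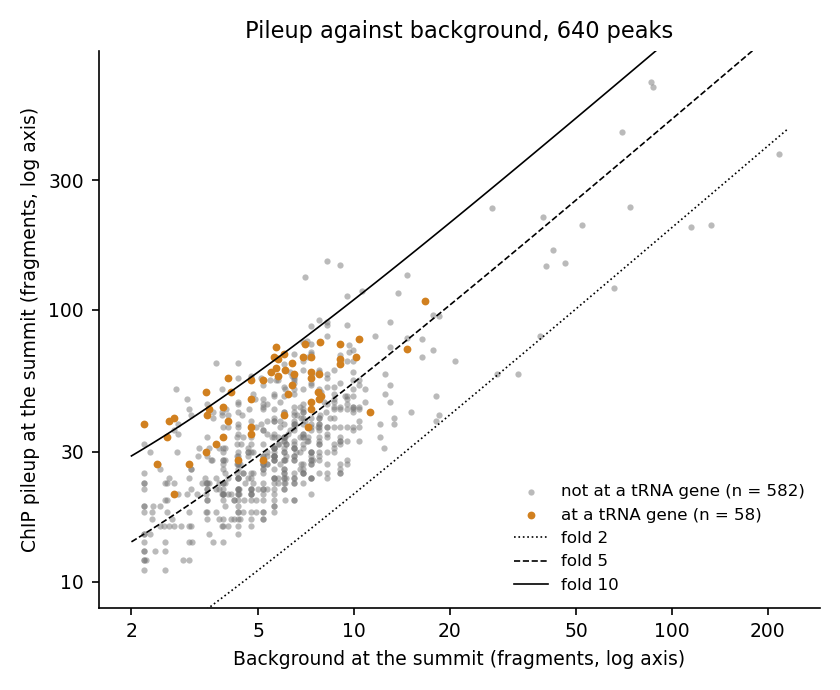
ChIP pileup at the summit against background, in fragments on log axes, for the 640 peaks; lines mark folds of 2, 5 and 10. The 58 peaks at tRNA genes (orange) lie mostly above fold 5, and the points at the far right are the 18 peaks whose background exceeded 20 fragments.

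Background also varied by place. In 18 of the 640 peaks (2.81%) it exceeded 20 fragments, beside 2.25% of the 3687 peaks of the list whose background could be worked out, and the median fold of the 18 was 3.19. The highest pileups of all belonged to this group: 4 peaks beside Gm40363 on chromosome 6 carried 166 to 688 fragments over backgrounds of 42.4 to 86.9, with folds of 3.85 to 7.92. A pair beside Tmem125 on chromosome 4 had 375 and 202 fragments, but backgrounds of 217.5 and 114.5 and folds of 1.72 and 1.76. The lowest fold of the 640, 1.55 (1.34 to 1.77), was at Gm39469 on chromosome 9 with 205 fragments over 132.3. Leaving out both the small RNA peaks and those above 20 fragments kept 550 peaks, with a median fold of 4.71. Of these, 20 reached a fold of 10 (3.64%).

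Of the 20 strongest peaks, 6 were at tRNA genes: those nearest to H4bc24 (12.2), Trim27 (11.5), Shf (11.3), Fcgr4 (11.1), 1810010H24Rik (11.04) and Abt1 (11.02). The other 14 were led by Ankrd1, a YAP target encoding a stress-responsive muscle protein, with a fold of 16.6 (13.9 to 19.6) from 132 fragments over 7.02, lying 9549 bp before its start. Dot1l, the gene of a histone H3 lysine methyltransferase of transcribed genes, followed with 16.5 (13.99 to 19.3) from 151 over 8.22, lying 3477 bp before its start. The third peak, 16531 bp before the start of D5Ertd579e, had a fold of 14.6 (12.3 to 17.1) at chr5:36712988-36713518, within the lncRNA gene Gm32725, and a weaker companion (5.52, 3.93 to 7.56) lay 1720 bp further out. The next were beyond the finish of Ccdc34 (13.9, 10.7 to 17.7) and before the start of Ggta1 (13.8, 10.4 to 18.1), which encodes a galactosyltransferase. Cp encodes ceruloplasmin, a copper-carrying ferroxidase, and had a peak 2923 bp before its start with 64 fragments over 4.32 and a fold of 12.2 (9.45 to 15.5).

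Peaks of similar fold lay beside genes of varied function. Bgn, for the matrix proteoglycan biglycan, had a peak 6857 bp before its start (12.05, 8.92 to 15.9) on chromosome X. Atp5l, an ATP synthase subunit gene, had one beyond its finish (10.9), and Nanos3, a germ cell RNA-binding protein gene, one 15623 bp before its start (10.8, 8.95 to 13.02, 113 fragments). Sphk1, the sphingosine kinase gene, had 10.7 and Trim2, a ubiquitin ligase gene, 10.7. Gpr84, a fatty acid receptor gene, had 10.6, 1600014C23Rik 10.5 and Tmem86a, an ether lipid hydrolase gene, 10.3. All 20 nearest genes had a matched strand, and 14 of the 20 peaks lay before the gene start.

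Median folds were alike at all distances within the window. The 167 peaks 2 to 5 kb out had a median fold of 4.85, the 205 at 5 to 10 kb 4.84 and the 268 at 10 to 20 kb 4.87, with median pileups of 33, 33 and 32 fragments. Peak numbers per length of intergenic sequence fell slowly at first: 2.04 peaks per Mb at 2 to 5 kb (exact Poisson 95% interval 1.74 to 2.37), 1.94 (1.69 to 2.23) at 5 to 10 kb and 1.82 (1.61 to 2.05) at 10 to 20 kb. These 3 intervals overlap. Beyond, the density was 1.46 (1.31 to 1.62) at 20 to 50 kb and 0.991 (0.864 to 1.13) at 50 to 100 kb. Without small RNA genes and high backgrounds the density at 2 to 20 kb was 1.64 (1.51 to 1.79), against 1.91 (1.77 to 2.07) with them; the bands beyond 20 kb were not recomputed in that way.

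**Figure D3:**
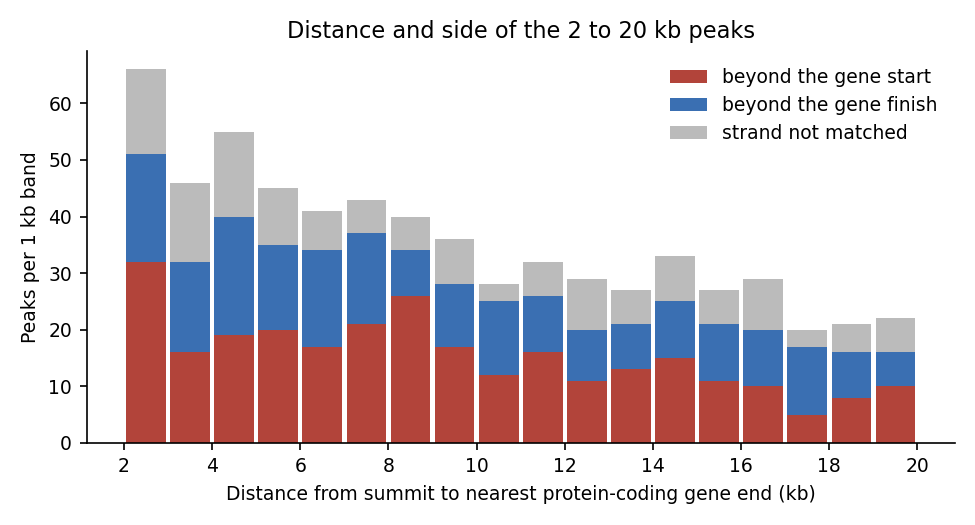
Number of peaks in each 1 kb band of distance from the nearest protein-coding gene end, split by side. The first band holds 66 peaks and the last 22; bars beyond the gene start (red, 279 peaks in all) and beyond the finish (blue, 219) both thin out with distance, and grey marks 142 peaks whose gene had no matched strand.

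The strand of the nearest gene was matched for 498 of the 640 peaks. Of these, 279 lay before the gene start and 219 past its finish, so 56.0% (Wilson 95% interval 51.6 to 60.3) were on the start side. Sequence was also unequal: over all protein-coding genes with a matched strand, the start sides held 53.8% of the intergenic sequence 2 to 20 kb out. Per Mb, 1.94 peaks (1.72 to 2.18) lay on the start side and 1.78 (1.55 to 2.03) on the finish side, and these intervals overlap. With every RefSeq gene in place of protein-coding ones the start side held 48.0% (43.4 to 52.7), an interval that includes 50%. The share of sequence on the start side is not given for that gene set. Median folds were 4.75 on the start side and 4.97 on the finish side.

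Peaks gathered around some genes. The 640 peaks had 522 different nearest genes; 427 of these had 1 peak, 76 had 2 and 19 had 3 or more. Another summit of the list lay within 5 kb for 191 peaks (29.8%), and within 20 kb for 339 (52.97%). The 5 kb share was 25.6% for peaks 20 to 100 kb out, 24.1% within gene bodies and 16.4% at gene ends. Of the 19 genes with 3 or more, 5 had all their peaks at tRNA genes (Zfp213 with 5 peaks, and Abt1, Cfap126, Osbp and Shf with 3 each). Another 3, Gm40363, Dhx40 and Mid1, had a peak of high background. The other 11 had neither.

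The folds at these 11 genes are given in turn. Irf1, a transcription factor gene of the interferon response, had 4 peaks: folds of 4.56 and 3.98 lay 8000 and 6323 bp before the start, and 4.99 and 6.57 lay 16423 and 18572 bp past the finish. Socs3, a feedback inhibitor of cytokine receptors, had 1 peak before its start (4.55) and 2 past its finish (3.36 and 2.85). Ier5, an immediate early gene, had 3 past its finish (6.42, 3.02 and 3.91, from near to far), and Sik1, a salt-inducible kinase gene, had 5.28, 4.41 and 3.42 on 1 side. Irf2bpl, of the IRF2-binding corepressor family, had 3 peaks before its start, of which the farthest, at 14904 bp, was strongest (9.74, against 5.22 and 4.04).

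At other genes of the 11 the folds reached 10.7. Timp2, an inhibitor of matrix metalloproteinases, had 3 peaks from 5891 to 9944 bp before its start with folds of 9.36, 5.73 and 9.66 and 50 to 88 fragments each. Col1a1, a chain of type I collagen, had 4.11, 3.76 and 2.98. Sphk1 had 10.7, 5.19 and 3.27, again with the strongest farthest from the start. Klrb1c (9.88, 4.72 and 4.07) and Gm50595 (5.52, 5.17 and 2.56) completed the set, together with Frmd8, whose peaks are described with the lncRNA genes. Among all 16 genes with 3 or more peaks and a matched strand, 12 had all of them on 1 side. These 12 include Zfp213, Cfap126, Osbp and Shf, with peaks at tRNA genes, and Dhx40 and Mid1, with high backgrounds. Peaks close together often share a side, and no share to set beside this count was worked out.

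**Figure D4:**
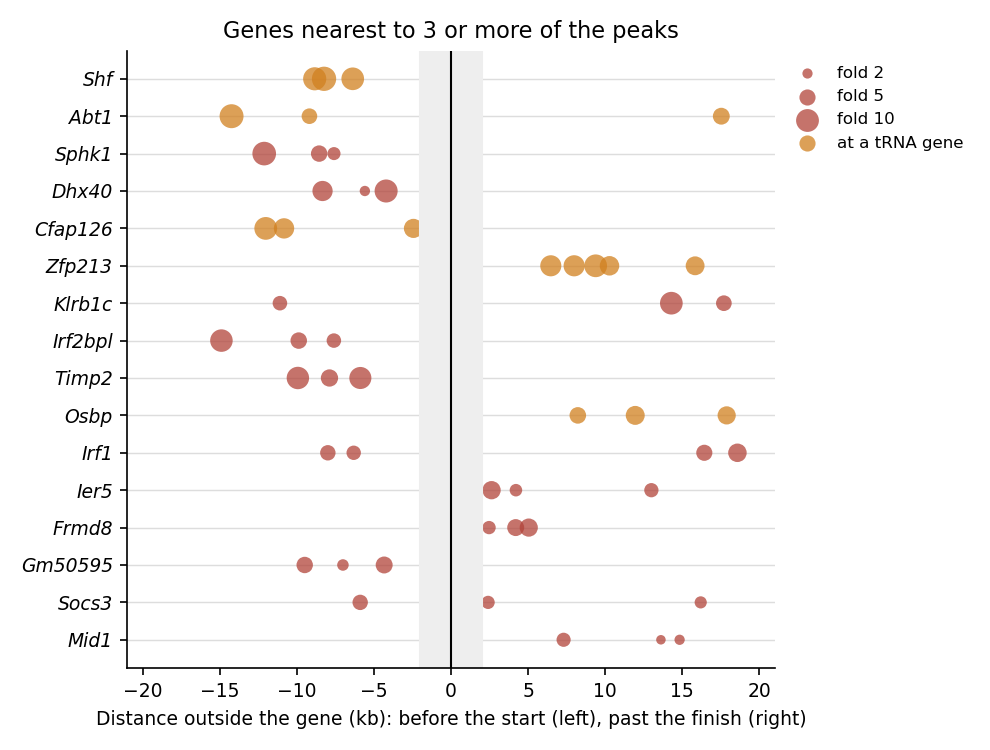
Position of each peak outside its nearest gene, in kb before the start (left) or past the finish (right), for the 16 genes with 3 or more peaks and a matched strand; the gene itself is drawn as the line at 0 and point area grows with fold. Irf1, Socs3, Klrb1c and Abt1 have peaks on both sides and the other 12 on 1 side; orange points lie at tRNA genes.

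Some nearest genes also carried a peak at an end of the gene itself, within 2 kb. This was so for 89 of the 522 genes (17.0%, Wilson 95% interval 14.1 to 20.5), where 5.08% of all protein-coding genes had one. The share was 14.7% of the 415 genes nearest to peaks 20 to 100 kb out and 13.1% of the 540 nearest to gene-body peaks 2 to 20 kb inside. At 62 of the 89 genes (69.7%) the strongest outside peak had the higher fold, with medians of 5.26 outside and 3.84 at the end. The gap was widest in fold at Dot1l, where the outside peak had 16.5 and the end peak 2.84. Ankrd1 had 16.6 and 6.59, Irf2bpl 9.74 and 4.19, Dusp1 7.35 and 3.67, and Bhlhe40 6.08 and 4.35. At the clock gene Nr1d1 the order was the reverse (3.37 outside, 6.23 at the end), as at Zfp36 (3.59 and 8.67) and Fbn1 (6.95 and 8.03). The higher background at gene ends, given above, enters these folds.

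Gene lists drawn up from known biology gave the functions of the nearest genes; they were chosen with earlier results of these data known, so their order is a description. Of all protein-coding genes, 2.40% were nearest to at least 1 of the 640 peaks, or 2.81% of the 18564 genes with any intergenic sequence 2 to 20 kb out. Genes of the extracellular matrix and mesenchymal state had the highest share, 9 of 48 (18.8%, Wilson 95% interval 10.2 to 31.9). All 9 were kept without small RNA peaks and high backgrounds, and 8 without chromosomes 15 and X. The median intergenic flank of the matrix list in the window was 29.7 kb, against 15.3 kb for all protein-coding genes. Every other list with 3 or more genes nearest to a peak also had a median flank above 15.3 kb. These ran from 16.8 kb (circadian clock) to 25.02 kb (MAP kinase feedback). In the remaining lists the medians ran from 4.95 kb (DOT1L and elongation) to 31.98 kb (KLF and SP factors). The part of flank length in the shares was not tested for any list.

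The matrix genes spanned a wide range of fold. Beside Bgn and Timp2, Col1a2, the other chain of type I collagen, had a peak of 920 bp lying 15518 bp before its start (10.1, 7.67 to 13.004). Fbn1, for the microfibril protein fibrillin, had 6.95 (4.99 to 9.44) and Sparc, for a collagen-binding glycoprotein, 6.32 with 60 fragments. The lysyl oxidase genes Loxl1 and Lox, whose enzymes cross-link collagen and elastin, had 5.54 and 5.01. The Lox peak had 15 fragments over a background of 2.19, the lowest value and a floor shared by 16 of the 640 peaks. The peaks nearest to H4bc24 and Tmem86a, among the 20 strongest, were at this floor too. Col6a1 had 2 peaks (4.96 and 3.71). The 14 peaks at these 9 genes had a median fold of 5.63.

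Signal-response genes followed. MAP kinase feedback genes had 4 of 25 (16.0%, interval 6.40 to 34.7): the phosphatase genes Dusp1 (7.35, 5.55 to 9.55) and Dusp7 (5.07 and 2.99), the RAF inhibitor gene Spred2 (3.76) and the EGF receptor inhibitor gene Errfi1 (3.07). NF-kB and inflammatory genes had 5 of 36 (13.9%), with Irf1 and Socs3 joined by the chemokine genes Cxcl1 (8.34 and 4.54) and Ccl2 (3.35) and by Bcl3 (5.21), an atypical IkB protein gene. Immediate early and AP-1 genes had 6 of 45 (13.3%, 6.26 to 26.2): Ier3 (8.34, 6.46 to 10.6), Dusp1, Ier5, Junb (6.39, 80 fragments), Fosl1 (4.67) and Zfp36. Junb and Fosl1 encode subunits of the AP-1 factor. Their peaks lay 2466 and 2568 bp from the genes, and raising the lower bound to 5 kb left 3 of the 6.

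Lists with smaller counts followed. Circadian clock genes had 3 of 24 (12.5%), Bhlhe40, Arntl (4.55) and Nr1d1. TGF-beta and BMP genes had 5 of 45 (11.1%), among them the inhibitory SMAD genes Smad6 (4.92) and Smad7 (4.52 and 4.27), the co-receptor gene Tgfbr3 (4.87) and Id1 (4.04). Hypoxia and glycolysis genes had 5 of 46 (10.9%), with Pdk1 (5.997), Bnip3 (4.83) and Slc2a3 (3.07) beside Bhlhe40 and Lox. Neural progenitor genes had 3 of 28 (10.7%), among them Hes1, a Notch target, at 8.64 (6.26 to 11.6), and Nes, for the filament protein nestin, at 4.82. The p53 list also had 3 of 28 (10.7%), with Mdm4 (7.16), Cdkn1a (4.15) and Perp (4.11); the Mdm4 summit lay 17 bp from the end of a tRNA gene, and without such peaks the count was 2. Bhlhe40, Lox and Dusp1 each count in 2 lists.

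The remaining lists had 2 genes or fewer. Among KLF and SP transcription factors 2 of 26 were nearest to a peak (Klf9 5.34, Klf15 4.43), among YAP/TEAD targets 2 of 31 (Ankrd1 and Nuak2, 6.30), and among SRF and actin genes 2 of 37 (Mrtfb 7.88, Actb 4.02). The Mrtfb summit lay 6 bp from the end of a tRNA gene. The DOT1L and elongation list had 1 of 30, Dot1l itself, and the lipid droplet list 1 of 35, Pparg (4.96). No gene of the H3K4 methyltransferase complexes (0 of 20) and none of the neuronal genes (0 of 40) was nearest to a peak. A count of 0 allows a share of up to 15% and 7.5%, taken as 3 over the number of genes, and the Wilson upper bounds were 16.1% and 8.76%. Their median flanks were 5.61 and 23.3 kb. These limits lie above the 2.40% of all genes, so a deficit was not detectable.

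**Figure D5:**
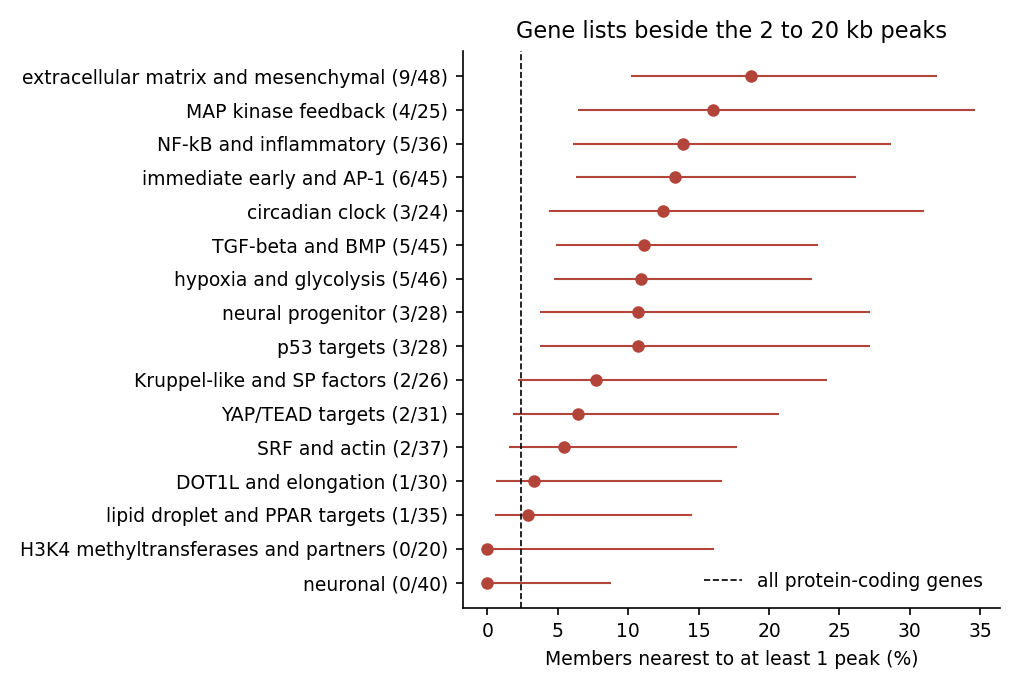
Share of each gene list, in percent of its matched members, that was nearest to at least 1 of the 640 peaks, with Wilson 95% intervals; counts stand in brackets and the dashed line marks the 2.40% of all protein-coding genes. Matrix genes stand highest at 18.8%, and the H3K4 methyltransferase and neuronal lists are at 0.

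Outside protein-coding genes, a peak can still lie at a non-coding gene. Of the 640 summits, 150 (23.4%, Wilson 95% interval 20.3 to 26.9) lay in a lncRNA gene or within 500 bp of one, beside 17.2% of all peaks. The share was higher, 31.1% (180 of 578), for intergenic peaks 20 to 100 kb out. Within 500 bp of a lncRNA gene's end lay 48 of the 640 (7.50%), beside 5.59% of all peaks. Pseudogenes had 3 (0.469%), beside 0.675% of all peaks. Some peaks lay at or near named lncRNAs. The 3 peaks past the finish of Frmd8 lay 460, 1307 and 3035 bp from Neat1, the RNA scaffold of nuclear paraspeckles, with folds of 6.35 (4.90 to 8.10), 5.53 and 3.41. Only the first of these, 966 bp wide, lay within 500 bp of Neat1. The Cdkn1a peak (4.15, 2.89 to 5.78) lay inside Trp53cor1, a p53-induced lncRNA, 72 bp from its end. The Hes1 peak lay inside Gm32998, 44 bp from its end. Both of the widest peaks stood near a lncRNA gene: 1387 bp near Klf9, inside 2410080I02Rik, and 1338 bp beside Chd2, a chromatin remodeller gene, 540 bp from Chaserr. The others of the 5 widest lay at Azin1 (1163 bp), Frmd8 and A4galt (937 bp).

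Chromosome 11 carried 90 of the 640 peaks (14.1%), or 5.62 per 100 protein-coding genes, the highest value of any chromosome. Irf1, Socs3, Timp2, Sphk1, Col1a1, Sparc and Ccl2 lie on it. Median background at the 90 peaks was 7.58 fragments, the highest of the chromosomes with peaks, beside 5.71 over the 640. Their median fold was 4.68, and the part of background in the count was not tested. The whole list had 23.0 peaks per 100 genes on chromosome 11, and 24.5% of them were among the 640. Chromosome 15 followed with 35 peaks and 4.52 per 100 genes, but the whole list was densest there (33.2 per 100 genes) and only 13.6% of its peaks were among the 640. That percentage was highest on chromosome 18 (15 of 54, 27.8%). Chromosome X had 11 peaks, 1.14 per 100 genes, and Y none. Without chromosomes 15 and X the other 594 peaks had a median fold of 4.86.

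The choice of window leaves close neighbours on either side. Just inside 2 kb lay the peaks at Tcf3 and Chid1 (both 2017 bp, folds 6.68 and 3.996) and Cirbp (2018 bp, 5.81). Just outside 2 kb lay Has1 and Vmn1r43 (both 1998 bp, 7.17 and 7.45) and Angptl4 (1994 bp, 9.35). At the far bound, Sema4b (19951 bp, 5.66), Itpr1 (19946 bp, 4.27) and Mrtfb (19871 bp, 7.88) were inside. Itga3 (20032 bp, 4.67), Zfp365 (20044 bp, 4.69) and Xrcc4 (20261 bp, 3.47) were outside. At the 2 kb bound each of the 3 outside folds was above the 3 inside, and at the 20 kb bound the folds of the 2 sides overlapped.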

How the data were processed

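KMT2D was profiled by ChIP-seq in HT22 cells with 1 ChIP and 1 input library. Bowtie2, Picard, MACS2 and mm10 are named in the submitters' processing notes; their settings were not stated. The deposited file is the authors' peak list, with a fold (ratio of ChIP to background), a −log10 p-value, a −log10 q-value and a score for each peak; the deposited score was not used. Its layout is that of MACS2, where the fold is (pileup + 1) over (background + 1) and p a Poisson tail; solving both gave a whole pileup, within 0.001 of the deposited −log10 p, for 3687 of 3706 peaks and all 640 described. Summits were placed against 21774 protein-coding genes among 49595 RefSeq genes of GRCm38.p6, the build behind mm10. Strand came from RefSeq promoter windows, matched for the nearest gene of 498 peaks. Intergenic sequence was measured between gene spans and given to the nearer gene. The procedures were tested on simulated data. No genome sequence was used, so the planned motif search ran on RefSeq promoter windows. With unreplicated libraries no test was made; intervals are Wilson, exact Poisson or, for medians, exact binomial, and a count of 0 is given the limit of 3 over the total. The 16 gene lists (549 entries, 5 unmatched) and the set of peaks were chosen with earlier results of these data known. Genes were named by rule: the 20 strongest peaks, those at each bound, genes with 3 or more peaks, up to 4 of each list, the 5 widest and the lowest. Genes in paragraphs on lncRNA, miRNA and gene-end peaks, high backgrounds and further list members were chosen after their values were seen. Alternatives (12 planned, 1 added) covered thresholds, bounds, gene sets and peaks left out.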

Additional observations from a re-analysis of the deposited data

How the results depend on the processing

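No paired analysis was possible because there was 1 ChIP and 1 input library, without replicate numbers. Of the recomputed main results, 61 stayed within 1.5 times (counts) or within the interval of the reported value, and 17 moved. Keeping peaks whose −log10 q reached the median of the whole list gave 387 peaks, a median fold of 6.04 and 6.98% at a fold of 10 or more. Keeping those whose fold reached its 75th percentile gave 217, with 7.51 and 12.4%, and 19 list genes in place of 48. These thresholds select on fold by construction. Bounds of 1 kb and 5 kb below moved the median distance from 8517.5 bp to 7591 and 11109 bp. Bounds of 10 kb and 50 kb above gave 372 and 1001 peaks with median distances of 5527.5 and 14340 bp. With all RefSeq genes in place of protein-coding ones the median fold was 4.68, the median distance 7513.5 bp, the start-side share 48.0% and the list genes 31; the cause was not tested. Leaving out small RNA genes, high backgrounds, both together (chosen after the data were seen) or chromosomes 15 and X moved none of the main results. Without small RNA genes, however, the median fold of 4.696 only equalled the lower bound of the main interval (4.696 to 4.992). Among counts for the 14 single lists with at least 1 gene, 39 moved by over 1.5 times and 143 did not; of the 2 lists at 0, the neuronal list had 1 gene with an upper bound of 50 kb. The unreplicated ChIP library and a median of 32 fragments at a summit limit every fold, and the nearest gene need not be the gene a peak acts on.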
